A study of Rattus norvegicus with 9 samples.

Results

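The mitochondrially encoded subunits of complex I, the first enzyme of the respiratory chain, were followed in the cerebral cortex of rats of 3 ages. The members were chosen by identifier, as the count rows of Mt-nd1, Mt-nd2, Mt-nd3, Mt-nd4, Mt-nd4l, Mt-nd5 and Mt-nd6, and all 7 were present among the 29516 Ensembl gene identifiers counted. The cortex came from male BN rats (substrain BN/SsNOlaHSD), fed ad libitum and killed at 6, 12 or 28 months. Each library was made from the pooled, ribosomal-RNA-depleted RNA of 2 rats and sequenced on the SOLiD system, with 3 libraries labelled for each age. The pools are the replicates, so p-values set the difference between ages against the spread between pools, not between single rats. One count file was given under 2 ages, as the second 6-month and the third 12-month library, so the 9 files hold 8 independent libraries. The labels do not settle the age of this shared library. It was therefore left out of the main comparisons, which used 2 libraries at 6 months (samples 1 and 3), 2 at 12 months (samples 1 and 2) and 3 at 28 months, and its values are given apart.

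Complex I oxidizes NADH, passes the electrons to ubiquinone and pumps protons across the inner mitochondrial membrane. Its membrane arm holds the subunits that mitochondrial DNA encodes, and the remaining subunits are made from nuclear genes and imported. The mitochondrial genome is transcribed from both strands into long precursors that are cut, mostly at the transfer RNAs, into single messages. Mt-nd1 to Mt-nd5 and Mt-nd4l are read from the heavy-strand precursor, and Mt-nd6 is the only one of the 7 read from the light-strand precursor. Mt-nd4l and Mt-nd4 stay together on 1 message with overlapping reading frames. Neurons depend heavily on oxidative phosphorylation, and cortex is rich in mitochondrial transcripts.

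Gene counts summed to 6513376 in the shallowest library and to 9196951 in the deepest. The 7 members took between 34777 and 94071 of these reads, which was 0.482 to 1.02% of the gene reads. Counts of single members lay between 801 and 23288 reads, where counting alone gives an error of 3.53% and 0.655%. The share of ENSRNOG00000043866, an unnamed identifier with more reads than any other, was 44.0 to 52.4%, so the scaling was also run without it. Levels are normalized counts, that is CPM (reads scaled to a common library total) after TMM scaling over the 8 independent libraries. Gene lengths were not used here, so levels are compared between ages and not between members. The cortical neuron marker Nptxr, a neuronal pentraxin receptor, had 73.4 to 175 normalized counts over the 8 libraries.

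All 7 members had their lowest mean level at 12 months. Summed over the 7, the normalized counts of the 6-month libraries (samples 1 and 3) were 10243 and 8702, those of the 12-month libraries (samples 1 and 2) were 4953 and 5866, and those of the 28-month libraries (samples 1 to 3) were 8019, 7968 and 8263. The 12-month libraries lay below every other library, and the 28-month libraries below both 6-month libraries. The mean sum at 12 months was 57.1% of that at 6 months, and that at 28 months was 85.3%. The shared library had a sum of 8689.

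**Figure D1:**
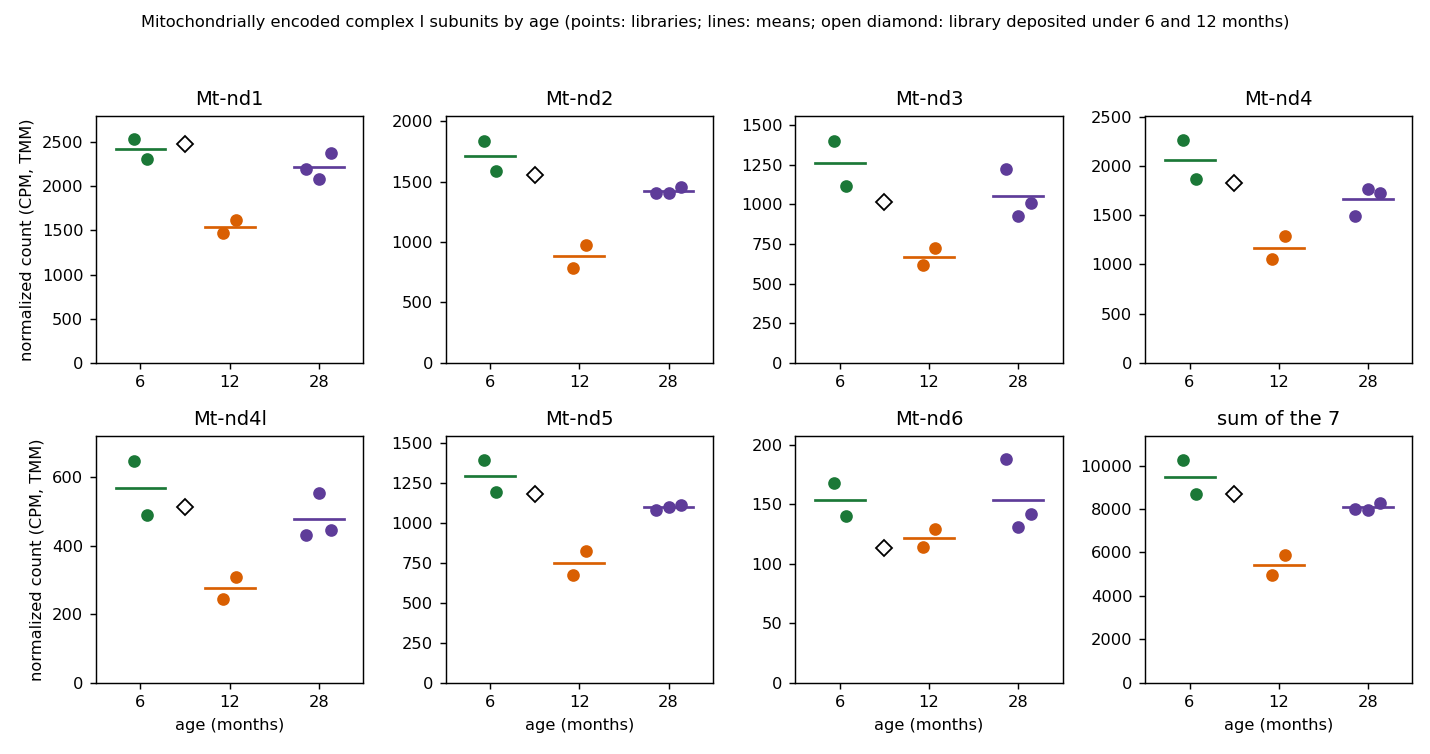
Normalized count (CPM after TMM, linear axis from 0) of each complex I subunit and of their sum against age in months. Filled points are libraries, lines are group means, and the open diamond between 6 and 12 months is the library deposited under both ages. Both 12-month libraries lie below the 6-month and the 28-month libraries in every panel, by the narrowest margin for Mt-nd6.

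The first comparison asked which members changed between young adult and middle-aged cortex. From 6 to 12 months 3 of the 7 fell, Mt-nd2 to 51.1%, Mt-nd3 to 53.0% and Mt-nd4l to 48.4% of the younger level. All 7 members, called or not, encode hydrophobic subunits of the membrane arm. DE was called at an FDR below 0.05 in the quasi-likelihood test of edgeR, adjusted by Benjamini-Hochberg over 15966 identifiers. Of these, 191 (1.20%) were called in either direction and 141 (0.883%) were lower at 12 months.

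Mt-nd2 (ENSRNOG00000031033), one of the proton-pumping subunits, had 1838 and 1587 normalized counts at 6 months and 783 and 978 at 12 months. The groups did not overlap, and the log2FC was -0.97 (standard error 0.17, FDR 0.0336). Mt-nd3 (ENSRNOG00000033615), which lies near the junction of the membrane arm and the peripheral arm, had 1403 and 1114 normalized counts at 6 months and 618 and 722 at 12 months. Both 12-month libraries were again lower, with a log2FC of -0.92 (standard error 0.18, FDR 0.0484). Mt-nd4l (ENSRNOG00000031053) had 646 and 491 normalized counts at 6 months and 245 and 309 at 12 months. Its log2FC of -1.05 (standard error 0.19, FDR 0.0391) had the largest size of the 7.

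The other 4 members did not pass the threshold between 6 and 12 months. Mt-nd4 (ENSRNOG00000029707), a proton-pumping subunit, had 2264 and 1867 normalized counts at 6 months and 1054 and 1289 at 12 months. Its log2FC was -0.83 (95% interval -1.22 to -0.43, FDR 0.0729). Mt-nd5 (ENSRNOG00000029971), the proton-pumping subunit at the far end of the membrane arm, had 1390 and 1193 at 6 months and 674 and 821 at 12 months. Its log2FC was -0.80 (95% interval -1.18 to -0.41, FDR 0.0729). Both members had every 12-month library below every 6-month library. Mt-nd1 (ENSRNOG00000030644), which forms part of the ubiquinone-binding site, had 2536 and 2309 normalized counts at 6 months and 1466 and 1619 at 12 months, a log2FC of -0.66 (95% interval -1.01 to -0.31, FDR 0.104). Mt-nd6 (ENSRNOG00000029042), the light-strand member, had 168 and 140 at 6 months and 114 and 129 at 12 months, a log2FC of -0.35 (95% interval -0.71 to 0.02, FDR 0.396). Its groups did not overlap, but the interval of its change included 0. In the shared library Mt-nd6 had 113 normalized counts, below both 12-month libraries. Mt-nd1, Mt-nd4 and Mt-nd5 had 2477, 1832 and 1181 there, above both 12-month libraries.

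The 7 members had a median log2FC of -0.83 between 6 and 12 months, against -0.01 for all identifiers tested. Their libraries did not overlap for 7 of 7, all lower at 12 months, as for 22.4% of all identifiers (45.5% in either direction). An unadjusted p under 0.05 was reached by 6 of 7 and by 13.6% of all identifiers, in either direction. In every comparison the 7 members are not independent observations, as 6 are read from the heavy-strand precursor and all share the same libraries. DESeq2's Wald test called 6 of the 7, among 246 of 15966 identifiers called. The exact test of edgeR called 5, among 462 of 15966. All these members were lower at 12 months.

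The calls rest on leaving out the shared library, and on the filter. In the shared library Mt-nd2 had 1557, Mt-nd3 had 1017 and Mt-nd4l had 512 normalized counts, above the 12-month libraries. Kept at both ages as labelled, it left 0 of the 7 and 0 of 16113 identifiers called by the quasi-likelihood test. An unadjusted p under 0.05 was reached by 4 of the 7 and by 485 of all identifiers. The median log2FC of the members was -0.51. With the shared library at 6 months only or at 12 months only, 0 of the 7 were called, against 19 and 109 of 16113 identifiers. Of the 7, 6 had an unadjusted p under 0.05 in both, as did 1266 and 1780 of all identifiers. The median of the members was -0.77 and -0.58. A filter of 1 read in any library also left 0 of the 7 called, with an FDR of 0.0628 for Mt-nd2. So did a filter of 10 reads in every library, where that FDR was 0.0702. Over all identifiers, 112 of 20625 and 145 of 11848 were called with these filters. Of the 7, 6 had an unadjusted p under 0.05 in both, as did 2161 and 1845 of all identifiers. Leaving out a single library left 1 age with 1 library, so only the size of the change is given here. The median log2FC of the members was -0.67 and -0.96 without 6 months samples 1 and 3. It was -0.70 and -0.97 without 12 months samples 1 and 2.

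**Figure D2:**
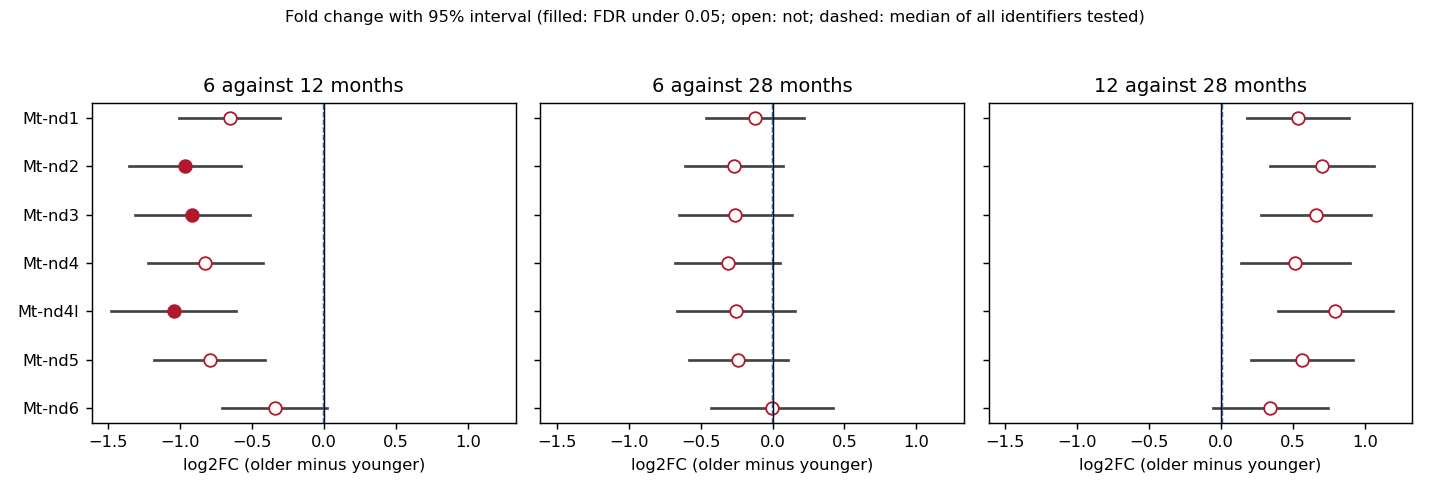
Log2FC of the 7 subunits (points, older minus younger age) with 95% intervals (lines) for the 3 pairs of ages, where filled points mark an FDR below 0.05 (quasi-likelihood test). All points lie at or below 0 against 6 months and above 0 from 12 to 28 months, and the 3 filled points are Mt-nd2, Mt-nd3 and Mt-nd4l at 6 against 12 months.

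The second comparison set young adult against old cortex. The quasi-likelihood test called 0 of the 7 members here and 33 of 16042 identifiers (0.206%). An unadjusted p under 0.05 was reached by 0 of the 7 and by 6.45% of all identifiers. The exact test and DESeq2 also called 0 of the 7. The members' log2FC lay between -0.31 and -0.00, with a median of -0.25 against -0.01 for all identifiers. Mt-nd4 had 1490, 1772 and 1728 normalized counts at 28 months, below both 6-month libraries, and a log2FC of -0.31 (95% interval -0.68 to 0.05, FDR 0.824). Mt-nd2 had 1405, 1401 and 1458 at 28 months, a log2FC of -0.27 (95% interval -0.61 to 0.07, FDR 0.841). Mt-nd5 had 1078, 1095.5 and 1110 at 28 months, a log2FC of -0.24 (95% interval -0.58 to 0.11, FDR 0.864). These 3 were the members whose 28-month libraries lay wholly below the 6-month libraries, while 21.9% of all identifiers did not overlap in 1 direction or the other.

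For the remaining members the 2 ages overlapped. At 28 months Mt-nd1 had 2202, 2089 and 2374 normalized counts, Mt-nd3 had 1224, 926 and 1006, and Mt-nd4l had 431, 555 and 444. Their log2FC against 6 months was -0.12 (95% interval -0.46 to 0.22), -0.26 (95% interval -0.65 to 0.14) and -0.25 (95% interval -0.66 to 0.16). Mt-nd6 had 188, 131 and 142 normalized counts at 28 months. Its log2FC was -0.00 (95% interval -0.43 to 0.42), and its sign turned under 5 of 15 alternatives. These intervals do not show that the 2 ages have the same levels.

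The third comparison set middle-aged against old cortex and shares its 12-month libraries with the first. None of the 7 was DE by the quasi-likelihood test, where 19 of 15840 identifiers (0.120%) were called, but 6 of the 7 had an unadjusted p under 0.05, as did 7.68% of all identifiers. Each of the 7 had all 28-month libraries above both 12-month libraries, as did 11.4% of all identifiers (24.6% in either direction). The median log2FC of the members was 0.56, against 0.01 for all identifiers. The log2FC of Mt-nd4l was 0.80 (95% interval 0.39 to 1.20, FDR 0.168), that of Mt-nd2 was 0.70 (95% interval 0.34 to 1.07, FDR 0.190) and that of Mt-nd3 was 0.66 (95% interval 0.28 to 1.04, FDR 0.275). Mt-nd5, Mt-nd1 and Mt-nd4 had a log2FC of 0.56, 0.54 and 0.52, each with a standard error between 0.16 and 0.18, and the light-strand Mt-nd6 had 0.34 (95% interval -0.06 to 0.74, FDR 0.709).

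DESeq2's Wald test called Mt-nd2, Mt-nd3 and Mt-nd4l higher at 28 than at 12 months, among 82 of 15840 identifiers called. The exact test called 0 of the 7 and 128 of 15840 identifiers. Single 28-month libraries moved the quasi-likelihood call of 2 members. Without 28 months sample 1 Mt-nd4l was called, among 117 of 15633 identifiers. Without 28 months sample 2 Mt-nd3 was called, among 142 of 15649. The filter of 1 read in any library called Mt-nd2 and Mt-nd4l, among 139 of 20694. The main fit called 19 of 15840, so calls over all identifiers rose in these settings as well. Keeping the shared library at 12 months, as labelled, lowered the median log2FC of the members from 0.56 to 0.37. An unadjusted p under 0.05 was then reached by 0 of the 7 and by 701 of 15992 identifiers.

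**Figure D3:**
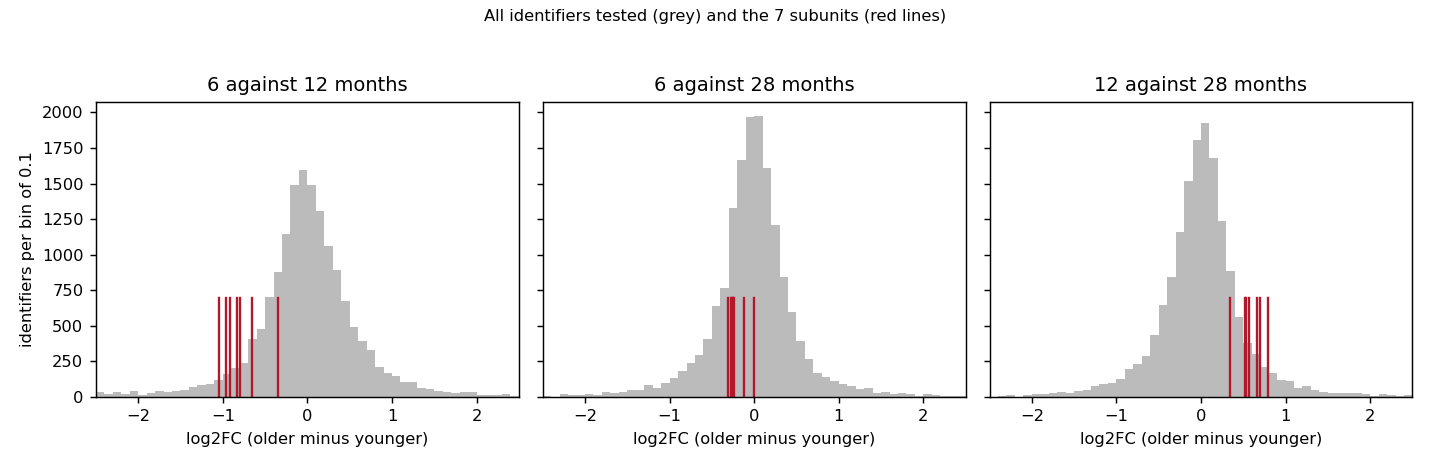
Number of identifiers per log2FC bin of 0.1 (grey bars, range -2.5 to 2.5 shown) for the 3 pairs of ages, with the 7 subunits as red lines whose height has no meaning. The subunits lie to the left of the centre at 6 against 12 months, close to it at 6 against 28 months, and to its right at 12 against 28 months.

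The members were then compared with each other within libraries, which does not depend on library size or scaling. Each member's share of the reads of the 7 varied over the 8 libraries by a factor of 1.04 for Mt-nd5 (13.4 to 14.0%), by 1.15 to 1.41 for the other heavy-strand members and by 1.80 for Mt-nd6 (1.301 to 2.35%). Mt-nd1 took 24.8 to 29.6% of the reads, Mt-nd4 18.6 to 22.2%, Mt-nd2 15.8 to 18.2%, Mt-nd3 11.6 to 15.3% and Mt-nd4l 4.94 to 6.96%. These are shares of reads, which also depend on the length of each gene.

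Mt-nd6 had 1.67 and 1.63 reads per 100 reads of the other 6 members at 6 months (samples 1 and 3), and 2.36 and 2.26 at 12 months (samples 1 and 2). At 28 months the values were 2.40, 1.67 and 1.74 in samples 1, 2 and 3, and the shared library had 1.32. The 12-month libraries were therefore above both 6-month libraries but inside the range of the 28-month libraries, where sample 1 stood apart from the other 2. Mt-nd4l had 28.5 and 26.3 reads per 100 reads of Mt-nd4 at 6 months, 23.2 and 24.0 at 12 months and 28.9, 31.3 and 25.7 at 28 months. For this ratio the 12-month libraries had the lowest values, and the shared library had 28.0. The ratio of Mt-nd3 to Mt-nd2 was chosen after its values had been seen. It was 76.3 and 70.2% at 6 months, 78.9 and 73.9% at 12 months and 87.2, 66.1 and 69.0% at 28 months. All 3 ages overlapped, and the shared library had 65.3%, below every other library. Reads of Mt-nd3 were relatively frequent in 28 months sample 1, as were those of Mt-nd6. The strand setting of the counting is not stated, so reads of Mt-nd6 and of any heavy-strand RNA over the same bases cannot be told apart, and reads on the overlap of Mt-nd4l and Mt-nd4 may be split or lost.

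**Figure D4:**
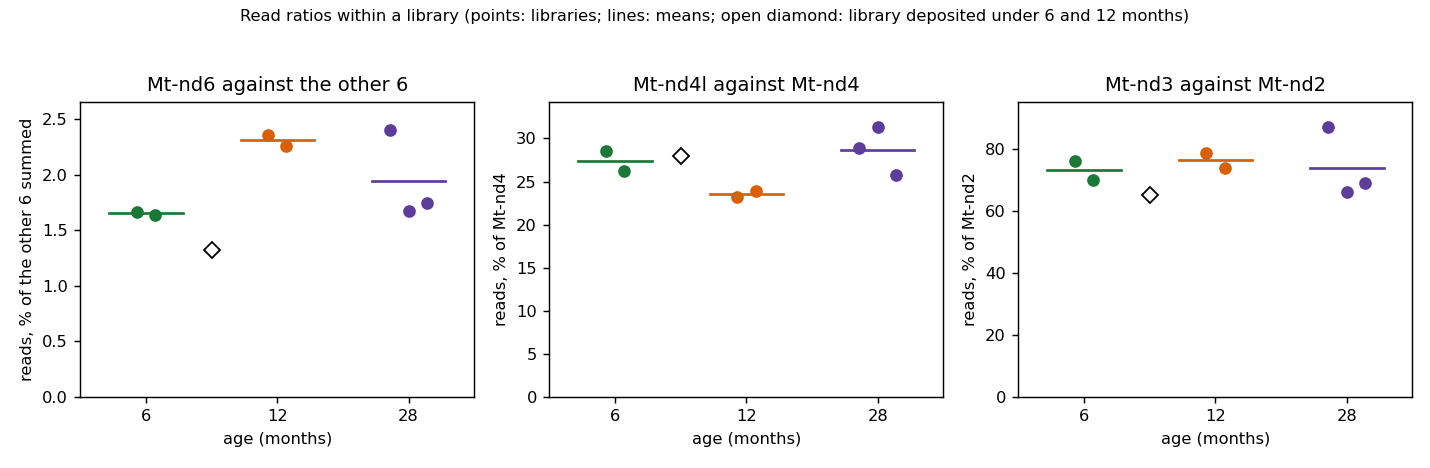
Ratios of reads in percent (axes from 0) against age in months, for Mt-nd6 over the other 6 members, Mt-nd4l over Mt-nd4 and Mt-nd3 over Mt-nd2. Filled points are libraries, lines are means and the open diamond is the library deposited under 2 ages. The first ratio is higher in both 12-month than in both 6-month libraries, the second is lowest at 12 months, and the third overlaps between all ages.

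Over the 8 libraries, log2 normalized counts of the 6 heavy-strand members had a Pearson r of 0.861 to 0.999 in 15 pairs, highest for Mt-nd2 with Mt-nd5. In the 6 pairs with Mt-nd6 the r was 0.37 to 0.74, highest with Mt-nd3. These values share library, depth and scaling and are given as a description. Among 10961 other identifiers with a mean of at least 20 reads, those with the profile most like the mean of the members over the 8 libraries were ENSRNOG00000014416 (r = 0.97, mean of 36.8 reads) and ENSRNOG00000030371 (r = 0.97, mean of 18919 reads), and the next 2 had an r of 0.96. ENSRNOG00000030371 had 2962 and 2779 normalized counts at 6 months, 1716 and 1972 at 12 months, 2380, 2690 and 2463 at 28 months and 2586 in the shared library. The sources used here give no name to any of these 4.

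The members were also set against other reads of the same libraries. They had 21.8 and 17.5 reads per 1000 reads of the dominant identifier ENSRNOG00000043866 at 6 months, 9.19 and 11.3 at 12 months and 14.3, 20.1 and 15.2 at 28 months, and 20.3 in the shared library. That identifier itself had a log2FC of 0.13 between 6 and 12 months (standard error 0.15, FDR 0.764). Of the mapped reads, 57.1 and 54.0% fell on no annotated gene at 6 months, 47.5 and 50.6% at 12 months and 50.4 to 60.0% at 28 months, with 59.6% in the shared library, so that the 12-month libraries lay below both 6-month libraries but overlapped with the 28-month libraries. As a share of all mapped reads, genes or not, the members took 0.438 and 0.401% at 6 months, 0.253 and 0.288% at 12 months and 0.354 to 0.371% at 28 months (0.372% in the shared library), so the 12-month libraries were lowest on this scale as well.

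A matched astrocyte and a matched microglia marker also differed between some of the ages, while the neuronal marker reported here was not called. Of 5 astrocyte markers, Gfap could be matched to an identifier. It had 72.4 to 89.2 normalized counts at 6 months, 145 to 155 at 12 months, 52.5 to 76.9 at 28 months and 151 in the shared library. It rose from 6 to 12 months (log2FC 0.88, FDR 0.0329) and fell from 12 to 28 months (log2FC -1.29, FDR 0.0216). Of 4 microglia markers, Aif1 was matched and had 5.16 to 5.66, 8.81 to 8.97 and 2.48 to 3.47 normalized counts at the 3 ages and 4.88 in the shared library, and fell from 12 to 28 months (log2FC -1.60, FDR 0.0444). Of 9 neuronal markers 2 were matched, and Nptxr is reported here. It had 117 to 128 normalized counts at 6 months, 80.8 to 99.1 at 12 months, 100.04 to 175 at 28 months and 73.4 in the shared library. Its log2FC was -0.46 between 6 and 12 months (FDR 0.278). Between 6 and 28 months it was 0.05 (FDR 0.985), and between 12 and 28 months 0.51 (FDR 0.653). The blood and plasma genes Alb and LOC689064, 2 of 4 listed, summed to 23.3 to 31.7, 40.5 to 53.7 and 19.1 to 29.7 at the 3 ages and to 71.9 in the shared library. Alb, the plasma protein albumin, had 3 reads in each 6-month library and 23 and 51 in the 12-month libraries, so it entered the test through the 12-month libraries, and no fold is given. No marker named here was at 0 in any library, and 0 of 4 oligodendrocyte and 0 of 3 choroid plexus markers were matched. The names that could be matched come from lists the study drew from these samples, so the matched markers are not an independent choice. The part of cell composition in the members' levels was not tested, and in such bulk samples fewer cells of a type and less RNA per cell cannot be told apart.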

How the data were processed

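The authors converted the SOLiD reads to FASTQ, mapped them with Bowtie to the Ensembl rat genome (rn4), counted them per gene with HTSeq and deposited raw counts for 29516 identifiers, followed by lines for uncounted reads. Program versions and the strand setting are not given in the sources used here. From 0.0356 to 0.0794% of the mapped reads were ambiguous, and 0 were recorded as aligned to several places, so the fate of reads shared with nuclear copies of mitochondrial DNA is unknown.

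Counts were scaled with TMM in edgeR 4.0.16 (R 4.3.3). Identifiers with at least 5 reads in at least 1 library compared were tested with the quasi-likelihood test, fitted separately for every 2 ages, at a Benjamini-Hochberg FDR of 0.05. Standard errors are the log2FC divided by the root of the F statistic, and intervals are 95%. The spread behind them and behind the p-values draws on all identifiers tested, not on the libraries of a single gene alone. Alternatives were the exact test (tagwise dispersion, grid length 500, proportion 0.5, prior df 28), DESeq2 1.42.0 with its Wald test, other scalings and other filters. Any identifier to which DESeq2 gave no FDR was counted as tested and not called. The fits were tested on simulated data. Symbols of other genes came from the paper's supplementary lists, which pair 114 identifiers with a name. The RefSeq table matched 0 identifiers and lists 0 of the members, so no sequences or lengths are given. For this reason 5 fixed lists (8 other mitochondrially encoded genes, 7 core and 29 accessory nuclear subunits of complex I, 13 assembly factors and 25 genes of mitochondrial transcription) had no matched gene and were not analysed here. The named genes are the 7 members, the dominant identifier, the most similar profiles (the 4 with the highest r, of which 2 are named) and the matched markers, of which 1 neuronal marker is not reported here. Members and lists were chosen with earlier results of these data known.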

Additional observations from a re-analysis of the deposited data

How the results depend on the processing

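The direction of log2FC held in 20 of the 21 member comparisons under every alternative run. The exception was Mt-nd6 at 6 against 28 months (-0.00), which became 0.13 with the shared library as labelled and 0.014 with upper quartile factors, and which ranged from -0.17 to 0.14 when single libraries were left out (0.14 without 6 months sample 1, 0.11 without 28 months sample 2 and 0.05 without 28 months sample 3).

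Between 6 and 12 months 3 members were called. None was called (0) with the shared library as labelled, at 6 months only or at 12 months only. The same held with a filter of 1 read in any library or of 10 reads in every library. In these settings, in this order, 4, 6, 6, 6 and 6 members had an unadjusted p under 0.05. So did 485, 1266 and 1780 of 16113, 2161 of 20625 and 1845 of 11848 identifiers. The exact test called 5 and DESeq2 called 6, among 462 and 246 of 15966 identifiers called. Without single libraries the median log2FC of the members lay between -0.97 and -0.67. Over all identifiers the count of 191 became 0 with the shared library as labelled (485 at an unadjusted p under 0.05), 19 with it at 6 months, 109 with it at 12 months, 112 with the filter of 1 read, 462 by the exact test and 360 to 883 without single libraries (360 and 428 without 12 months samples 1 and 2, 638 and 883 without 6 months samples 1 and 3). Between 6 and 28 months 0 members were called under every alternative, and the count of 33 identifiers became 18 as labelled, 199 with the filter of 1 read, 138 by the exact test, 70 by DESeq2 and 0 (without 28 months sample 3, where 549 had an unadjusted p under 0.05) to 137 (without 28 months sample 1), with 91 without 28 months sample 2 and 20 without 6 months sample 1. Between 12 and 28 months 2 members were called with the filter of 1 read, 3 by DESeq2 and 0 to 1 without single libraries. The count of 19 identifiers became 9 as labelled, 7 with no scaling factor, 139 with the filter of 1 read, 128 by the exact test, 82 by DESeq2 and 0 to 142 without single libraries, with 117 and 142 without 28 months samples 1 and 2, 3 without 12 months sample 1, and 0 without 28 months sample 3 or 12 months sample 2, where 870 and 918 had an unadjusted p under 0.05.

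The summed level at 12 months, 57.1% of that at 6 months, became 64.5% as a share of all mapped reads and 70.6% with the shared library as labelled, and was 52.3 to 62.2% without single libraries. That at 28 months, 85.3%, became 87.8% with the shared library as labelled and 78.9 to 92.9% without single libraries. Leaving out libraries and relabelling the shared one were added for these sums after the data had been seen. The cause of these differences was not tested, beyond the fewer samples or other identifiers each alternative holds. A fit without 1 library that leaves 1 at an age assumes that this library varies like the others. Levels per kilobase were not run, for want of gene lengths. No paired analysis was possible because the labels number the samples in 1 series across the ages, and the sample numbers used here within an age follow the order of the samples and pair none of them.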
